A study of Mus musculus with 36 samples.

Results

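The 10 genes described here code for potassium channels and for the subunits bound to them: Kcnb2, Kcnd2, Kcnh7, Kcnq5, Kcnma1 and Kcnt2 form pores, and Dpp6, Dpp10, Kcnip1 and Kcnip4 are auxiliary subunits. They were chosen by name as long genes of this family, with earlier results of these data in view, among them the lesion levels per gene by tissue and assay, and all 10 were found among the 49943 genes to which DNA lesions were assigned. The SSiNGLe assay mapped single-strand breaks (SSBs) over the genome, each as the nucleotide at the end of a broken strand, and the related SSiNGLe-AP assay mapped AP sites, nucleotides that have lost their base. The mice were 2 males of the C57BL/6J strain at 24 months of age, for which the labels name no genotype other than the strain and no treatment. Brain, liver, heart, bone marrow freed of red cells, motile sperm of the epididymal tail and mononuclear cells of peripheral blood (PBMCs) gave 12 samples, each with 1 SSB and 1 AP library, 24 libraries in all. Sperm DNA was prepared with another kit than the DNA of the other 5 tissues, so the kit and the tissue cannot be told apart there. The tissue labels could not be checked against marker genes, since lesion positions carry no expression.

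Voltage-gated potassium channels open when the membrane is depolarised and carry the current that returns it to rest. Kcnd2 forms the Kv4.2 pore of the fast A-type current of neuronal dendrites. Its KChIP subunits (Kcnip1 and Kcnip4) bind calcium inside the cell, and its DPP-like subunits (Dpp6 and Dpp10) are membrane proteins related to a peptidase that have lost the enzyme activity. Kcnb2 forms the delayed rectifier Kv2.2, Kcnq5 an M-type channel and Kcnh7 a channel of the ERG type. Kcnma1 forms the large-conductance BK channel, opened by calcium and voltage, and Kcnt2 a channel opened by sodium. Most of these genes are best known from the nervous system, and all 10 are very long.

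The depth of the SSB libraries was between 225011 and 1041983 positions, and that of the AP libraries between 460719 and 963258. Each position was counted once. LPKM is the number of positions in the span of a gene, from its first to its last base with introns included, per bp of the span and per position of the library, times 1e+09. The 10 genes held 14957 SSB positions and 24954 AP positions over the 12 libraries of each assay. The highest depth per gene was that of Dpp6, with 101 to 496 SSB positions and 254 to 546 AP positions per library. The lowest was that of Kcnt2, with 19 to 116 SSB and 36 to 98 AP positions. Single values of Kcnt2 thus rest on few positions. The p-values below come from fits to these libraries, which came from 2 animals, and do not measure the spread between animals. For strand and for the parts of a gene tested below, the standard errors were close to those expected from the counts of positions alone.

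On GRCm38, Kcnb2 lies at chr1:15286925-15723751, Kcnq5 at chr1:21398399-21962650 on the minus strand, Dpp10 at chr1:123332138-124845815 on the minus strand and Kcnt2 at chr1:140245657-140614045 on the plus strand. Kcnh7 lies at chr2:62693410-63184287 on the minus strand. Dpp6 at chr5:26817357-27727500 on the plus strand shares its chromosome with Kcnip4 at chr5:48389503-49525122 on the minus strand. Kcnd2 lies at chr6:21215346-21729805 on the plus strand, Kcnip1 at chr11:33629339-33993348 on the minus strand and Kcnma1 at chr14:23292288-24005110 on the minus strand. The shortest is Kcnip1 with 364010 bp and the longest Dpp10 with 1513678 bp. Since few genes are as long, the 402 other protein-coding genes of at least 364010 bp were used beside the 10 genes throughout and are called long genes. Other genes overlap each of the 10, so that 35.9% of the positions in Kcnb2, 30.7% in Kcnip1, 13.4% in Kcnd2 and 10.7% in Kcnma1 were counted for another gene too, against less than 10% in the others. In Kcnip1 the overlapping genes include Kcnmb1, the gene of a subunit of the BK channel.

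Promoter sequence from RefSeq (GRCm38.p6) was at hand for 9 of the 10 genes, with no entry for Kcnb2. It gave 15 windows, each from 250 bases before to 50 bases after a start of transcription. The windows held 37 SSB and 47 AP positions over all libraries, and 14 of the 15 held at least 1. The 250 bases before a start of Kcnip4 had the most, and are shown first for SSBs and then for AP sites. The strand of the gene is shown from 5′ to 3′, and capitals mark each base at which a lesion was recorded, on either strand.
Kcnip4, chr5:49285660-49285909, minus strand, SSB: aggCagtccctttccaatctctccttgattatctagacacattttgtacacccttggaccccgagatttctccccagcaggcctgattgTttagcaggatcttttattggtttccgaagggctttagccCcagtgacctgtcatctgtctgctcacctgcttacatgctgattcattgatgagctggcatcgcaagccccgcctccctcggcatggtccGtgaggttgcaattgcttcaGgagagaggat
Kcnip4, chr5:49285660-49285909, minus strand, AP: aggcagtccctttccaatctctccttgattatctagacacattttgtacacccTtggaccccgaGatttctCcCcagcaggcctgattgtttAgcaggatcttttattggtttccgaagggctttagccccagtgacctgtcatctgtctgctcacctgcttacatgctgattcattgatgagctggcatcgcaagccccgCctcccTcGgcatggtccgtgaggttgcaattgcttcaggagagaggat
The 5 SSB positions came from 5 libraries, of bone marrow, brain, heart and both liver samples. The AP positions numbered 9 at 8 bases, since base 54 was recorded in liver replicate 2 and in sperm replicate 1. The corresponding window of Dpp10 had 5 SSB positions, 3 of them in brain replicate 2 and the others in sperm replicate 1, all on the strand of the gene.
Dpp10, chr1:124045560-124045809, minus strand, SSB: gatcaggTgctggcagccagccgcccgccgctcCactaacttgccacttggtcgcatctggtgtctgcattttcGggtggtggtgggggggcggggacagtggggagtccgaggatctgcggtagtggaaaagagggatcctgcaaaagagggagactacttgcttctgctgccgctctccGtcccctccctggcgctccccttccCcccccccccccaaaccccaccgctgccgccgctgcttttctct
Over the full 300 bases, the window of Kcnma1, with a GC content of 78%, was the only one of the 15 without a lesion of either kind. In the 250 bases before the start alone, Kcnt2 and Kcnh7 held none either.
Kcnma1, chr14:24004206-24004455, minus strand, no lesion: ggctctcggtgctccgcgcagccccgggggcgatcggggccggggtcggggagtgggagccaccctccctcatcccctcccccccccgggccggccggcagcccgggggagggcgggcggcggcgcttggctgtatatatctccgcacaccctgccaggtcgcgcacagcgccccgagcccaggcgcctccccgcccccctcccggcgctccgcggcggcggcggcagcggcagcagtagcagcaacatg
Single positions rarely recurred elsewhere in the 10 genes either. Of 14881 distinct SSB positions, 75 were found in 2 or more libraries, and of 24580 distinct AP positions 370 were, with no position in more than 3 libraries. The libraries of an assay thus shared few positions, though the number expected by chance was not computed. Each position was counted once per library, so repeats within a library could not add to a level.

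The bases at the recorded positions could be read only in the promoter windows. They were read along the strand letter of each position, and the sources used here do not say whether that is the broken strand. What is called the base before a lesion depends on this. Over all RefSeq windows, the base recorded for an AP site was A or G, the purines, in 74.8% of 64229 cases. In the windows of the 10 genes it was a purine in 34 of 47 cases (72.3%). The base before an SSB was C in 55.2% of 59944 cases over all windows and in 22 of 36 cases (61.1%) in the windows of the 10 genes. A high share of C was not particular to SSBs: the base 2 before an AP site was C in 53.2% of 63810 cases over all windows. C made up 26.7% of the bases of all windows, and 30.1% of those of the 10 genes, over both strands. The counts in the 10 genes were too few for a comparison with all windows.

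The lesion level per length differed between the 10 genes. The mean LPKM-SSB over 12 libraries was highest in Kcnip1 (0.665), Kcnma1 (0.635) and Dpp6 (0.538). It was between 0.316 and 0.376 in Kcnb2, Kcnq5, Kcnip4, Kcnd2 and Kcnh7, and 0.259 in Kcnt2 and in Dpp10. LPKM-AP gave nearly the same order, with Kcnma1 at 0.725, Kcnip1 at 0.707 and Dpp6 at 0.619, and with Kcnt2 lowest at 0.238. Both subunit classes thus held members with high and with low levels, as did the DPP-like pair, in which Dpp6 was above Dpp10 in each of the 24 libraries. The medians of the 10 genes were 0.332 for SSBs and 0.320 for AP sites, against 0.428 and 0.454 in the long genes and 0.628 and 0.638 in all genes tested. The 91 other genes of the potassium channel family, most of them shorter, had medians of 0.806 and 0.804.

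**Figure D1:**
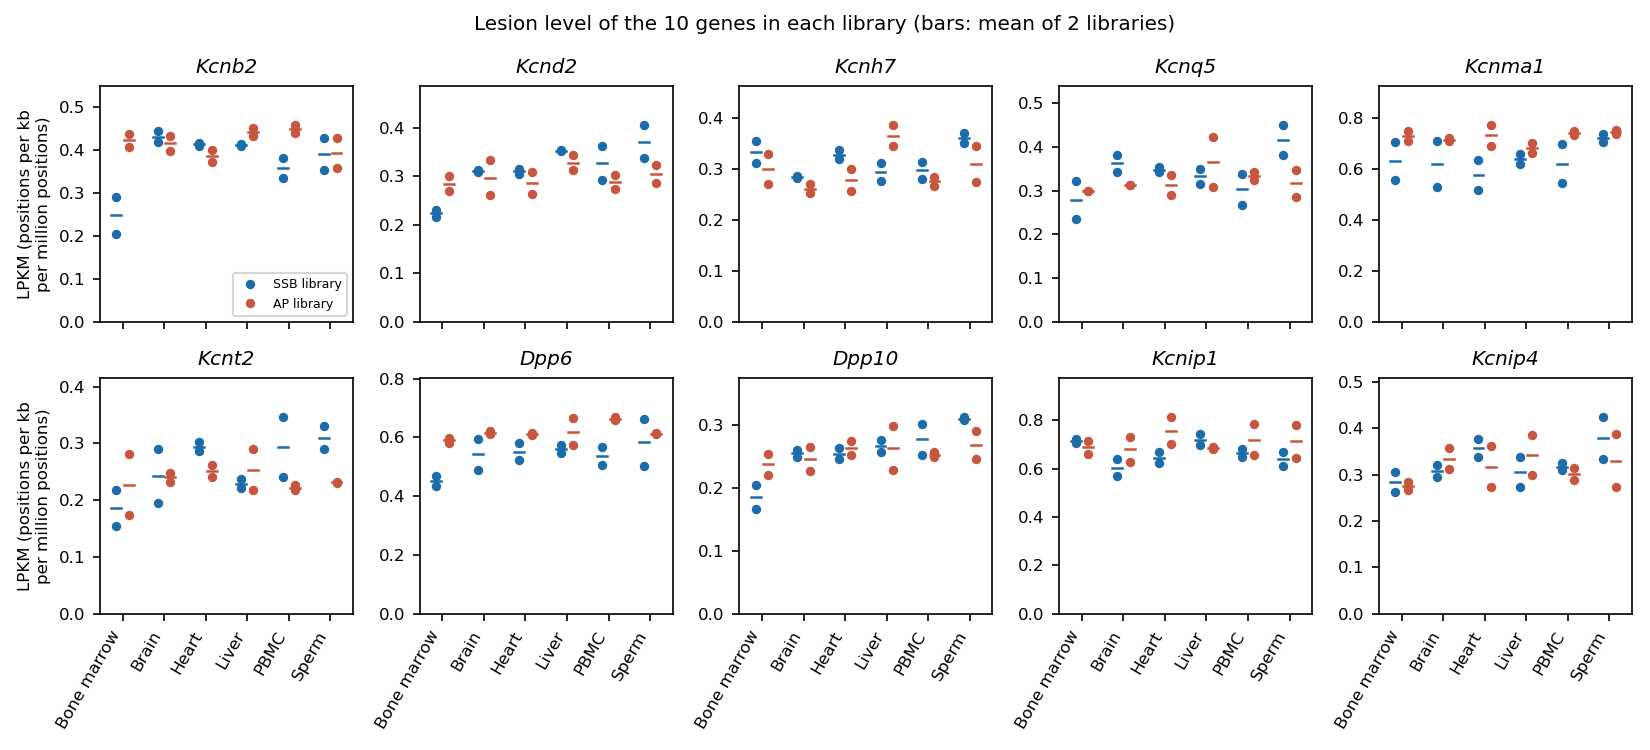
LPKM (positions per kb of gene, scaled to the size of the library, y axis from 0) of each of the 10 genes by tissue (x axis), with SSB libraries in blue and AP libraries in red, points for the 2 libraries of a tissue and bars for their mean. The SSB points of bone marrow lie below those of every other tissue in Kcnb2, Kcnd2, Dpp6 and Dpp10, while the AP points of bone marrow do not lie apart in any gene.

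Across tissues, the SSB levels of most of the 10 genes were lowest in bone marrow and highest in sperm. Bone marrow had the lowest mean LPKM-SSB in 7 genes, the exceptions being Kcnip1 and Kcnh7 (lowest in brain) and Kcnma1 (heart). Sperm had the highest mean in 8, the exceptions being Kcnb2 (brain) and Kcnip1 (liver). Tissue was part of what chose these genes, so the levels are a description and were given no p-value. The highest tissue mean divided by the lowest was between 1.19 in Kcnip1 and 1.74 in Kcnb2, with a median of 1.41. In most places of the order, neighbours did not differ beyond their spread: of the 50 pairs of tissues next to each other (5 per gene), the libraries of 12 did not overlap. The share of such pairs in other genes was not computed, so the 12 are not read as tissue differences.

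Kcnb2, the gene of the delayed rectifier Kv2.2, had LPKM-SSB values of 0.205 and 0.291 in bone marrow. They were 0.336 and 0.382 in PBMCs, 0.427 and 0.353 in sperm, 0.411 and 0.415 in liver, 0.410 and 0.417 in heart and 0.443 and 0.420 in brain. Both bone marrow libraries were below all others, and brain was the highest tissue by a small margin over heart. The 2 bone marrow values rest on 41 and 30 positions.

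Dpp10, an auxiliary subunit of Kv4 channels, had LPKM-SSB values of 0.167 and 0.204 in bone marrow. The next tissues were heart (0.246 and 0.264), brain (0.261 and 0.249), liver (0.277 and 0.258) and PBMCs (0.302 and 0.253), whose libraries overlapped. Sperm had 0.308 and 0.313, above all other libraries. In Dpp10 bone marrow and sperm thus both stood apart, in opposite directions.

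Kcnd2, the Kv4.2 pore to which Dpp10 binds, had LPKM-SSB values of 0.216 and 0.231 in bone marrow, again below all others. The values were 0.312 and 0.309 in brain, 0.305 and 0.315 in heart, 0.363 and 0.292 in PBMCs, 0.353 and 0.352 in liver and 0.337 and 0.405 in sperm. Here sperm was highest by its mean only, as its libraries overlapped those of liver and PBMCs.

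Dpp6, the other DPP-like subunit, was the fourth gene with both bone marrow libraries (0.434 and 0.470) below all other SSB libraries, which were between 0.489 and 0.662. Kcnma1, the BK channel, had 0.737 and 0.705 in sperm, and its bone marrow values of 0.557 and 0.707 lay within the range of the other tissues. Kcnip1 went the other way: its bone marrow libraries (0.707 and 0.722) were above those of brain (0.570 and 0.639), heart (0.622 and 0.670), PBMCs (0.647 and 0.683) and sperm (0.667 and 0.611). Kcnip4 ranged from 0.284 ± 0.0304 (SD, n = 2) in bone marrow to 0.378 ± 0.0636 in sperm, Kcnq5 from 0.279 ± 0.0617 to 0.415 ± 0.0477 and Kcnt2 from 0.186 ± 0.0457 to 0.310 ± 0.0294 in the same tissues. Kcnh7 ranged from 0.284 ± 0.00255 in brain to 0.360 ± 0.0131 in sperm. In these 4 genes the bone marrow libraries overlapped those of other tissues.

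Both bone marrow SSB libraries lay below all others in 4 of the 10 genes, against 1.27% of all genes tested and 16.4% of the long genes. Both sperm libraries lay above all others in 2 of 10, Dpp10 and, by a small margin, Kcnq5, whose sperm values were 0.449 and 0.382, against 1.94% and 18.7%. On the log2 scale, the median of bone marrow over the mean of the other 5 tissues was -0.31 in the 10 genes, -0.17 in the long genes and 0.03 in all genes tested. The corresponding medians of sperm were 0.25, 0.13 and -0.16. The directions seen in the 10 genes were thus those of long genes in general, and they were not tested as particular to potassium channel genes. Bone marrow had 0.334 ± 0.0394 LPKM-SSB (SD, n = 2) when the 10 genes were pooled, and sperm 0.437 ± 0.0182. In the long genes it was 0.368 ± 0.0103 and 0.435 ± 0.00457.

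**Figure D2:**
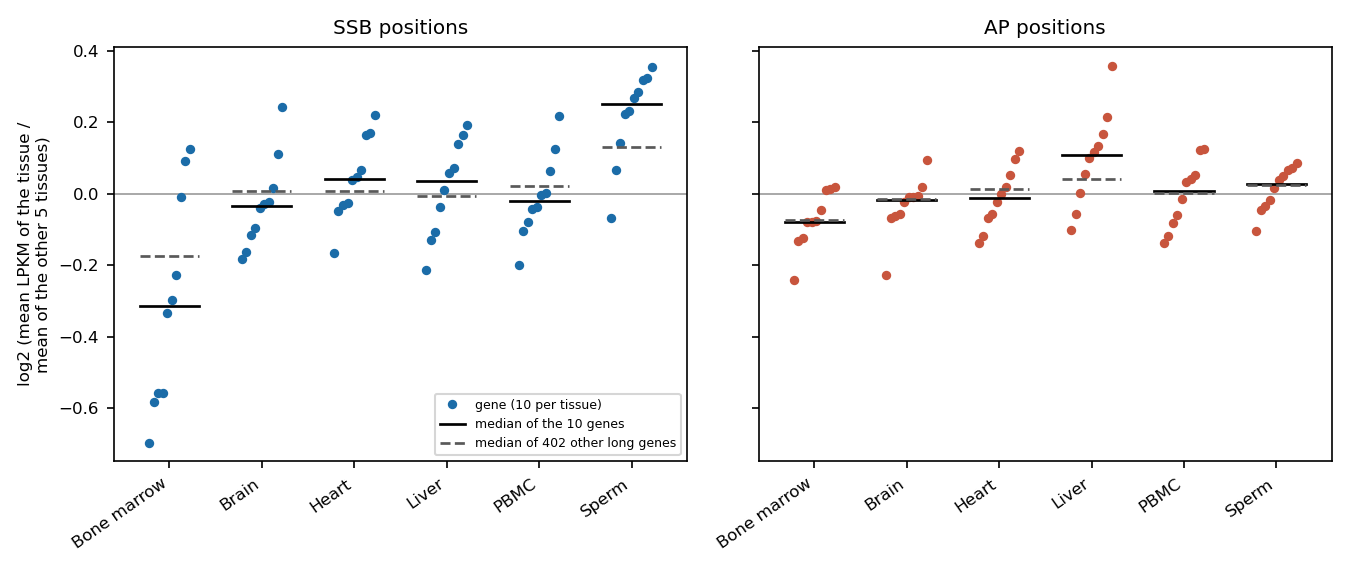
Log2 ratio of the mean LPKM of a tissue to the mean of the other 5 tissues (y axis) for each tissue (x axis), with SSBs on the left and AP sites on the right, 1 point per gene, a solid bar for the median of the 10 genes and a dashed bar for that of 402 other long genes. For SSBs the medians of the 10 genes are -0.31 in bone marrow and 0.25 in sperm, and for AP sites the points of all tissues lie around 0.

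With edgeR's quasi-likelihood F test over the 6 tissues, 2 of the 10 genes, Kcnb2 and Dpp10, had an adjusted p under 0.05 for SSBs, where 0.125% of all genes tested (48 of 38486) and 8.71% of the long genes (35 of 402) did. This contrast was among the values that chose the genes, so nothing is read from the count. Neither gene was called by DESeq2's likelihood ratio test or by limma on log2(LPKM + 1), and neither without bone marrow or without sperm. Leaving out bone marrow replicate 1 or sperm replicate 1 left 0 of the 10 genes called, and leaving out brain replicate 2 or liver replicate 1 left 1. None of the 91 other family genes passed.

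The AP levels varied less with tissue than the SSB levels in 9 of the 10 genes, by the ratio of their extreme tissue means, the exception being Kcnh7 (1.40 for AP sites and 1.27 for SSBs). The 10 genes held fewer SSB than AP positions (14957 against 24954), and this ratio grows with counting noise. It was not computed at equal depth. For AP sites, the highest tissue mean divided by the lowest was at least 1.09, in Kcnma1, with a median of 1.15. Liver had the highest mean LPKM-AP in 5 genes and bone marrow the lowest in 5. Kcnb2 had AP values of 0.438 and 0.407 in bone marrow, within the 0.359 to 0.458 of the other libraries, in contrast to its SSB values. Kcnh7 had 0.385 and 0.345 in liver, above all other AP libraries though hardly above sperm replicate 2 (0.344). For liver this was 1 of the 10 genes, against 2.16% of all genes tested and 2.49% of the long genes. For each of the other 5 tissues it was 0 of the 10 genes. There the shares were 1.17% to 1.75% of all genes tested and 0.498% to 1.74% of the long genes. Pooled over the 10 genes, LPKM-AP lay between 0.387 ± 0.0110 (SD, n = 2) in bone marrow and 0.418 ± 0.0272 in liver. With edgeR's quasi-likelihood test, 0 of 10 genes and 0% of all genes tested (0 of 41374) were called for AP sites, with 1219 genes at an unadjusted p under 0.05. DESeq2 called 0 genes and limma 53, none of them among the 10. Whether the assays differ in their tissue pattern was tested over all genes as an interaction, a test added after the data were seen. None of the 10 genes passed it, and 1 of 37821 genes (0.00264%) did. Levels by tissue and assay were among the values that chose the genes, so nothing is read from this count either.

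The SSB and the AP library of a sample carry the same tissue and replicate number in the labels, and the assays were compared within these pairs. Kcnma1 had a lower LPKM-SSB than LPKM-AP in 12 of 12 samples, with a ratio of 0.879 ± 0.122 (SD, n = 12) that ranged from 0.672 to 0.998. Dpp6 was lower for SSBs in 11 of 12 samples, with a ratio of 0.869 ± 0.0988. In the paired edgeR fit, these were the members called, 2 of 10, with log2 differences of -0.29 for Kcnma1 and -0.31 for Dpp6. The fit includes TMM normalization, which the LPKM ratios do not, so the 2 scales differ. By the fit, 1 of the 10 genes had a log2 difference above 0. The background was 0.902% of all genes tested (0.738% lower and 0.164% higher for SSBs) and 23.9% of the long genes, all of which were lower for SSBs. The median log2 difference was -0.07 in the 10 genes, -0.15 in the long genes and -0.06 in all genes tested. The assay was named in the rule that chose the genes, so no p-value is given and nothing is read from the count of genes called. Kcnb2 had the lowest ratio of all, 0.467 in bone marrow replicate 1, and its ratios reached 1.19. Kcnt2 had 1.10 ± 0.260 and Kcnh7 1.07 ± 0.156, with 10 of 12 samples of Kcnh7 at or above 1. Of the other family genes, Kcnk2, a two-pore channel gene, passed with a log2 difference of -0.33 (adjusted p = 0.0483, edgeR).

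**Figure D3:**
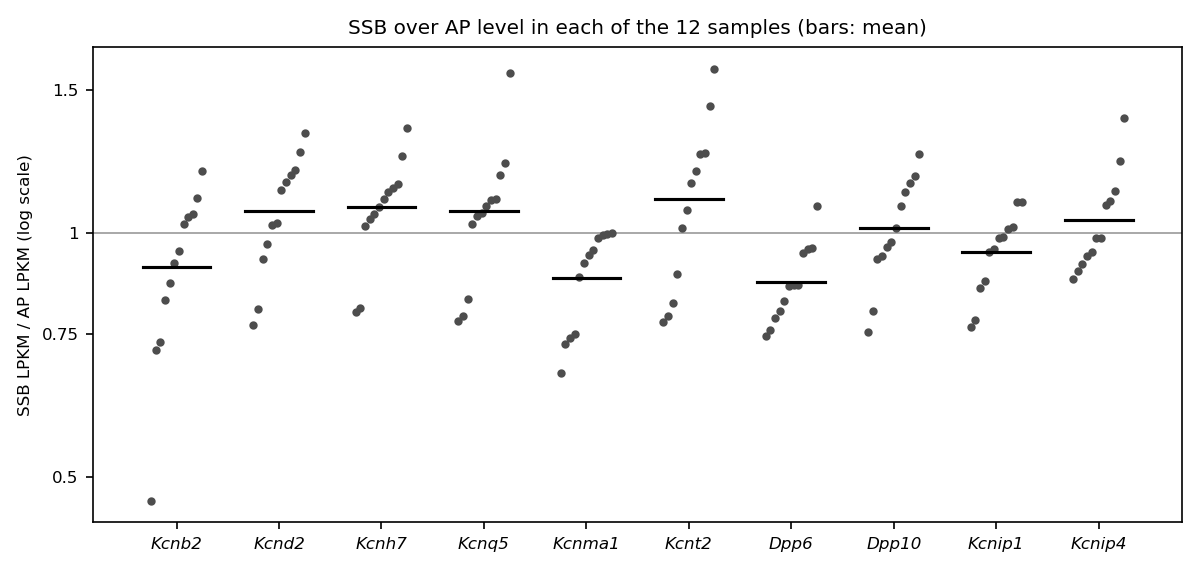
Ratio of LPKM-SSB to LPKM-AP (y axis, log scale) in each of the 12 samples (points) for each of the 10 genes (x axis), with a bar for the mean. All 12 points of Kcnma1 and 11 of those of Dpp6 lie below 1, while the points of the other genes lie on both sides.

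The strand of the lesions was not used to choose the genes and could be tested in the 9 with a known strand. Positions carry a strand letter in the files, and the sources used here do not say whether it is that of the broken strand, so it is given only as the same as that of the gene or opposite to it. Over all 12 SSB libraries, the shares on the strand of the gene were between 46.2% in Kcnip1 (620 of 1342 positions) and 54.8% in Kcnt2 (292 of 533). None of the 9 genes passed edgeR's quasi-likelihood test, against 8.43% of all genes tested (1000 of 11861, 8.16% higher on the strand of the gene and 0.27% lower) and 38.8% of the long genes (120 of 309). The median log2 difference was 0.01 in the 9 genes, 0.18 in the long genes and 0.21 in all genes tested. At an unadjusted p under 0.05, there were Kcnip1 (log2 difference -0.22 ± 0.08 SE, adjusted p = 0.0624) and Kcnt2 (0.28 ± 0.13, adjusted p = 0.169).

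Kcnip1, the KChIP1 gene, had fewer SSBs on its own strand in 10 of 12 libraries, with 35.5% as the lowest share, 46.2% as the median and 56.0% as the highest. Its call depended on the setting: the adjusted p was 0.0247 when genes needed at least 200 positions to be tested, and 0.0333 without brain replicate 1, 0.0463 without heart replicate 2 and 0.0418 without sperm replicate 1 in edgeR. Without positions that lie in another gene too, 30.7% of those in Kcnip1, the log2 difference was -0.14 (adjusted p = 0.381, edgeR). Kcnt2 had more on its own strand in 10 of 12 libraries. For AP sites, 0 of 9 genes passed, against 0.131% of all genes tested (20 of 15216, 0.118% higher and 0.0131% lower), and the median difference of the 9 genes was 0.00. Kcnh7 was the only one at an unadjusted p under 0.05 (log2 difference -0.19 ± 0.08 SE, adjusted p = 0.410, edgeR). In the other family genes, 5 of 48 had more SSBs on their own strand: the calcium-activated Kcnn3, and the voltage-gated Kcnh5, Kcna4, Kcnh8 and Kcnh1, with log2 differences between 0.26 and 1.01. None of 56 passed for AP sites.

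Since these genes are known from neurons, the strand difference in brain was compared with that in the other 5 tissues. None of the 9 genes was called with edgeR for SSBs or AP sites, where 0% of all genes were (0 of 11861 and 0 of 15216, with 460 and 648 at an unadjusted p under 0.05). The SSB difference of brain ranged from -0.35 ± 0.25 (SE, log2) in Kcnd2 to 0.35 ± 0.21 in Kcnip1. Without positions in another gene too, the difference of Kcnd2 was -0.64 and that of Kcnip1 0.45, and neither was called. A test of strand by tissue, added after the data were seen, called none of the 9 genes either.

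Along the gene, lesions were not evenly spread. Each gene was split at its midpoint, and the 5′ and the 3′ part were compared within libraries, another measure that did not choose the genes. For SSBs, 2 of 9 genes passed edgeR's quasi-likelihood test, against 14.2% of all genes tested (1689 of 11861, 5.56% higher in the 5′ part and 8.68% lower) and 43% of the long genes. For AP sites 4 of 9 did, against 27.8% (4224 of 15216, 7.94% higher and 19.8% lower) and 58.9%. A difference between parts was thus common among genes, and the shares of the 9 genes were not above those of the long genes. The direction was mixed, with median log2 differences of 0.05 for SSBs and 0.01 for AP sites in the 9 genes, against -0.11 and -0.13 in the long genes, in which the 3′ part was mostly higher.

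Kcnma1 had more lesions in its 5′ part for both assays. It held 1331 SSB positions in the 5′ and 1164 in the 3′ part, with the 5′ part higher in 9 of 12 libraries (log2 difference 0.19 ± 0.06 SE, adjusted p = 0.0191, edgeR). AP positions numbered 2501 and 2075, with the 5′ part higher in 10 of 12 libraries. The AP share of the 5′ part was 47.7% at the lowest, 55.7% at the median and 58.6% at the highest (log2 difference 0.27 ± 0.04, adjusted p = 5.86e-08). The AP difference was 0.35 when bases that other genes cover were left out of both parts.

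Kcnh7, the ERG-type channel, had more lesions in its 3′ part for both assays. It held 375 SSB positions in the 5′ and 475 in the 3′ part, with the 3′ part higher in 11 of 12 libraries (log2 difference -0.34 ± 0.10 SE, adjusted p = 0.00987, edgeR). AP positions numbered 585 and 685, with the 3′ part higher in 11 of 12 libraries and equal in the other one (-0.23 ± 0.08, adjusted p = 0.0248). With the gene cut into 10 equal bins from 5′ to 3′, bins 3 to 5 were low for SSBs, with 59, 63 and 62 positions, against 86 to 107 in each of the other 7.

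Kcnd2 had more AP sites in its 3′ part, with 599 and 741 positions and no library with a higher 5′ part (log2 difference -0.31 ± 0.08 SE, adjusted p = 0.00111, edgeR). The SSB difference went the same way and did not pass (-0.18 ± 0.10, adjusted p = 0.215). Bin 6 of the 10 held 46 SSB and 71 AP positions and bin 10 held 133 and 228, the lowest and the highest of the gene for each assay. Dpp10 had more AP sites in its 5′ part, with 1792 and 1614 positions (0.15 ± 0.05, adjusted p = 0.0167, edgeR), and an SSB difference that did not pass (0.13 ± 0.06, adjusted p = 0.183). The 5′ part of Dpp10 was higher for AP sites in only 7 of 12 libraries and lower in 5. Its AP share was 50.5% at the median and 61.3% at the highest, in brain replicate 2.

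**Figure D4:**
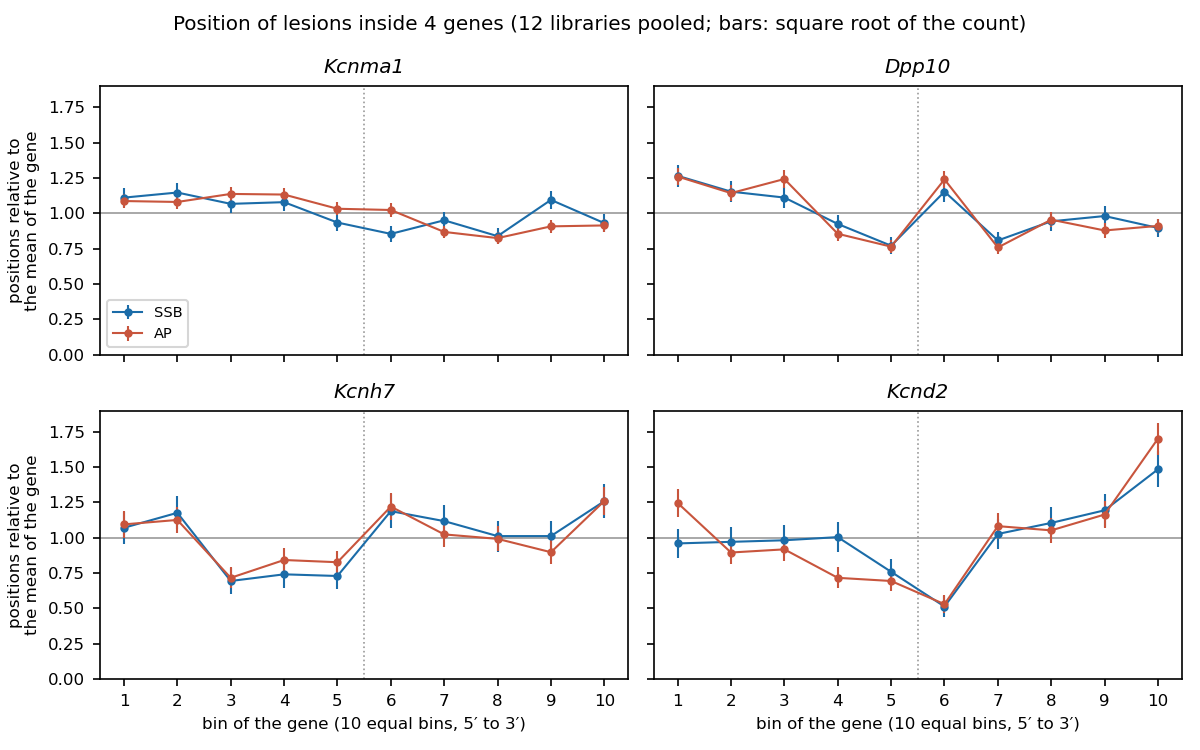
Positions in each of 10 equal bins of the gene from 5′ to 3′ (x axis), relative to the mean of the gene (y axis), in Kcnma1, Dpp10, Kcnh7 and Kcnd2, with SSBs in blue and AP sites in red, 12 libraries pooled and bars of the square root of the count. Bin 6 of Kcnd2 holds 46 SSB and 71 AP positions and bin 10 holds 133 and 228, and bin 3 of Kcnh7 is low for both assays.

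The SSB calls of Kcnma1 and Kcnh7 depended on how the gene was cut. With genes cut into 3 equal parts and the first compared with the last, neither passed for SSBs (adjusted p = 0.0695 for Kcnma1 and 0.155 for Kcnh7, edgeR), whereas Dpp10 (log2 difference 0.30, adjusted p = 0.00171) and Kcnd2 (-0.36, adjusted p = 0.0145) did. The SSB calls were also lost without single libraries: that of Kcnma1 without bone marrow replicate 1 (adjusted p = 0.0733), brain replicate 2 (0.110) or heart replicate 2 (0.105), and that of Kcnh7 without bone marrow replicate 1 (0.0552) or liver replicate 2 (0.0700). For AP sites, the call of Dpp10 was lost without bone marrow replicate 2 (0.0561) or brain replicate 2 (0.143), and that of Kcnh7 without PBMC replicate 2 (0.0864) and with 3 equal parts (0.111). The AP calls of Kcnma1 and Kcnd2 held without each single library. The parts were also tested for a dependence on tissue, after the data were seen, and none of the 9 genes was called for SSBs or AP sites. Of the other family genes, 9 of 48 differed between parts for SSBs, 6 of them higher in the 5′ part, and 10 of 56 for AP sites, 5 in each direction. The inward rectifier Kcnj3 had the smallest p for SSBs (log2 difference 0.84) and the ether-a-go-go gene Kcnh1 for AP sites (-0.56).

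**Figure D5:**
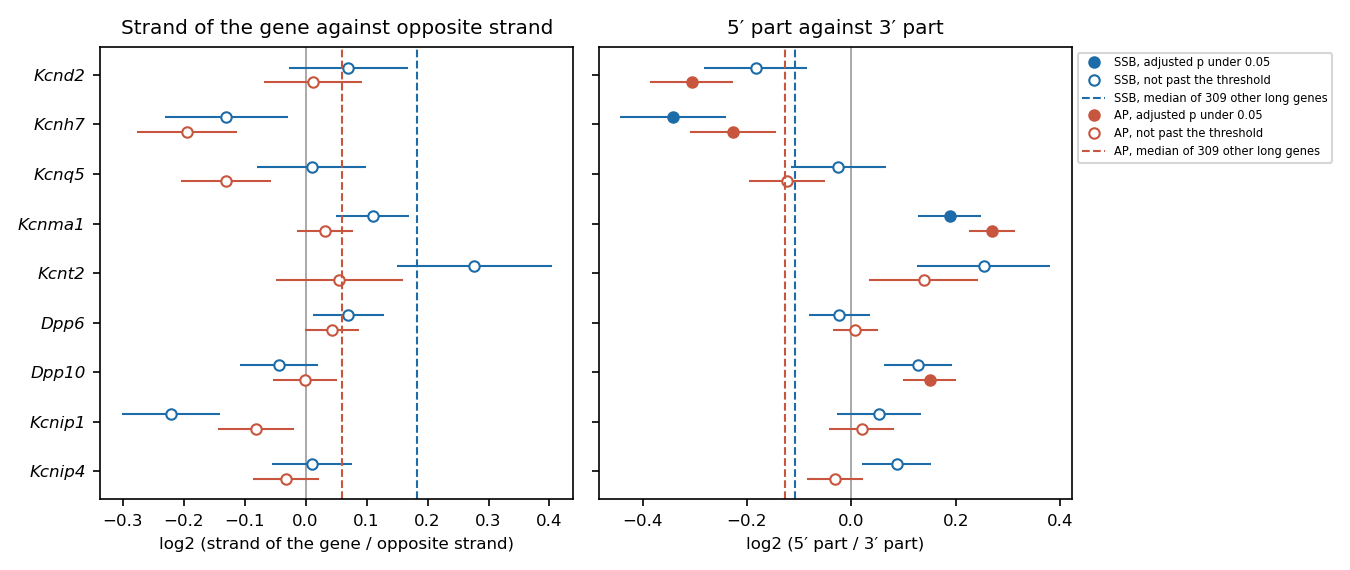
Log2 difference (x axis) between the strand of the gene and the opposite strand (left) and between the 5′ and the 3′ part (right) for the 9 genes with a known strand (y axis), with SSBs in blue and AP sites in red, bars of 1 SE, filled points for an adjusted p under 0.05 and dashed lines for the medians of 309 other long genes. No point is filled for strand, and for the parts Kcnma1 and Kcnh7 are filled in both assays, in opposite directions.

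The gene bodies were compared with flanking sequence of the same total length, as a description. The mean ratio of body to flanks over 12 libraries was highest in Kcnt2, with 1.84 ± 0.650 (SD) for SSBs and 1.98 ± 0.368 for AP sites. Kcnb2 followed with 1.47 ± 0.374 and 1.79 ± 0.281, and Kcnma1, Kcnip1 and Dpp6 were also above 1, at 1.22 to 1.32 for SSBs and 1.27 to 1.42 for AP sites. Kcnip4 (0.928 ± 0.0996 for SSBs) and Kcnh7 (0.918 ± 0.143) were below 1 in 9 and 10 of 12 libraries. The medians of the 10 genes were 1.16 and 1.19, close to the 1.15 and 1.18 of the long genes. Kcnt2 was thus among the lowest of the 10 genes in level, yet highest relative to its surroundings, while the high level of Dpp6 came with a ratio of 1.22. Within the longest gene, Dpp10, the number of SSB positions per 100 kb window went from 100 to 193, and that of AP positions from 131 to 303.

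Levels of the 10 genes did not all move together over libraries. Over the 12 SSB libraries, the median Pearson correlation of log2 LPKM between 2 of the genes was 0.380 over 45 pairs, from -0.565 (Dpp6 and Kcnip1) to 0.937 (Dpp10 and Kcnd2). For AP sites the median was 0.0269. Among 934 other genes with at least 50 SSB positions per library on average, those most like the 10 genes pooled were Ptprd (r = 0.932), Ntm (0.924), Anks1b (0.918), Cadps2 (0.891) and Sorcs3 (0.891), against a median of 0.131. All 5 are long genes, with lengths from 578403 to 2270506 bp. The minimum of 50 positions itself favours long genes, and their share among the 934 was not computed. These values describe 12 libraries that share the same low levels in bone marrow and high levels in sperm, and depth differs between them.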

How the data were processed

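The authors deposited, for each library, a list of single-nucleotide lesion positions with a strand and a raw count of reads per position, not normalized and not pooled over replicates. The labels name mm10 and GRCm38; the aligner is not given in the sources used here for these lists. Each position was counted once per gene over whole RefSeq spans (GRCm38.p6), since the table used here gives no exons, and LPKM was positions multiplied by 1e+09 per bp and per library total. A position in overlapping genes counted for each. Genes with a position in at least 20% of the libraries were tested with edgeR 4.0.16 in R 4.3.3 (quasi-likelihood F test, TMM, Benjamini-Hochberg adjustment over all genes, threshold 0.05). Strand and the 5′ and 3′ parts of a gene (split at its midpoint) were tested as paired columns of a library, for genes with at least 50 positions over 12 libraries and a strand in the promoter table (27025 genes). Scripts were tested on simulated data with changes larger than the differences tested in the 10 genes. The simulation thus does not show whether differences as small as these would be found. DESeq2 1.42.0 and limma 3.58.1 (pseudocount 1) were alternatives. Named were all 10 genes, at most 5 other family genes per test by smallest p among those past the threshold, and the 5 genes most correlated with the 10 pooled. The 10 genes and all lists were chosen with earlier results of these data known. The RNA profiles of the series are not analysed here. Other settings tried are given with their effect at the end.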

Additional observations from a re-analysis of the deposited data

How the results depend on the processing

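Across tissues, 2 of the 10 genes were called for SSBs. The count was 0 with DESeq2's likelihood ratio test, limma, without bone marrow and without sperm, and 1 at equal depth and with summed counts. Over all genes, the 48 calls became 4 with DESeq2, 12 at equal depth, 16 with summed counts, 3 without bone marrow and 7 without sperm. For AP sites, limma called 53 genes in place of 0. Between the assays, DESeq2 size factors gave 188 genes in place of 341. With at least 200 positions, 1 of 9 genes (Kcnip1) was called for SSB strand, 88 genes in place of 20 for AP strand, 878 (of 3075 tested) in place of 1689 for 5′ against 3′ parts of SSBs and 2303 (of 5105) in place of 4224 for those of AP sites, where fewer genes were tested. Without positions in another gene too, 39 genes were called for AP strand. The cause of the other changes was not tested.

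Leaving out 1 library in turn, the count across tissues was 4 to 65 genes and 0 to 2 of the 10 for SSBs, and 0 to 2 genes for AP sites. Between the assays, where both libraries of a sample were left out together, it was 210 to 335 genes, with 2 of the 10 each time. For strand it was 750 to 978 genes and 0 to 1 of the 9 for SSBs, and 9 to 24 genes for AP sites. For 5′ against 3′ parts it was 0 to 2 of the 9 for SSBs and 3 to 4 for AP sites. The pooled level of sperm over bone marrow, 1.31 for SSBs and 1.06 for AP sites, was 1.21 to 1.43 and 1.01 to 1.11. Brain contrasts called 0 genes each time. Over all settings tried, no difference of one of the 10 genes changed sign while past the threshold.

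With the replicate number as a block, 59 genes and 2 of the 10 were called across tissues for SSBs and 0 for AP sites. Without the block of samples, 425 genes and 2 of the 10 were called between the assays. The labels do not say whether a replicate number marks the same mouse in different tissues. Over 15 pairs of tissues, the correlation of deviations was -0.0336 to 0.0233 for SSBs and -0.188 to 0.131 for AP sites. These values cannot decide it, since the mice need not differ in their lesions and counting noise lowers such correlations. The tests of strand or of the 5′ and 3′ parts by tissue, added after the data were seen, called 0 genes in edgeR, with 331 to 487 at an unadjusted p under 0.05.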
